A study of Homo sapiens with 32 samples.

Results

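PP242 was given to MCF10A cells in normoxia, and the change in total mRNA was read from 4 of the 32 RNA-Seq libraries of the series, 2 treated and 2 untreated. The members are the 2 libraries of normoxia with PP242 (NPP) and the 2 of normoxia (N), all of total mRNA (T), found from the sample labels and the library barcodes in the column names. MCF10A is an immortalised human breast epithelial line that does not form tumours. The NPP cultures received 2.5 µM PP242 for 3 hours and the N cultures received the same volume of its solvent, DMSO. The medium of both groups held EGF, insulin, hydrocortisone and cholera toxin. The other libraries cover hypoxia (H, 0.5% O2 for 24 hours), hypoxia with PP242 (HPP), polysome-bound mRNA (P) and the carcinoma line MDA-MB-231. They entered the fit or are set beside the result where stated.

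mTOR is the kinase of 2 protein complexes. mTORC1 responds to growth factors and amino acids and drives ribosome production and the translation of mRNAs that begin with a terminal oligopyrimidine (TOP) tract, while mTORC2 phosphorylates AKT. PP242 competes with ATP at the kinase and so acts on both complexes. Active AKT holds FOXO transcription factors in the cytoplasm and mTORC1 does the same for TFEB, the regulator of lysosomal genes, so in many cell types inhibitors of this pathway are known to change transcription as well as translation.

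The deposited values are expected counts per gene. Library totals were 35547567 and 43854886 counts in N replicates 1 and 2, and 35245770 and 31922664 counts in NPP replicates 1 and 2. NPP replicate 2 stood apart from the other 3 libraries. Its ribosomal protein genes held 17.4% of the counts, against 10.1%, 10.5% and 9.72% in N replicate 1, N replicate 2 and NPP replicate 1. The median transcript length, weighted by counts, was 1126 bases in this library against 1378, 1378 and 1444 bases in the others, and its TMM scaling factor was 0.764 against 1.10, 1.10 and 1.13. The standard deviation (SD) across genes of the log2 difference between the 2 replicates was 1.06 in NPP and 0.273 in N. Genes sorted by transcript length into 5 equal bins show the direction of the shift. In NPP replicate 2 the median log2 difference from N ran from 0.41 in the bin of the shortest to -0.81 in that of the longest, and in NPP replicate 1 it ran from -0.096 to 0.13. The RNA quality of the samples was not analysed here, and its part in these differences was not tested. Counts of calls over all genes are given with and without this library. List medians without it follow where they changed sign or moved by more than the spread between replicates. The called genes that were also called without it are named after the counts.

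**Figure D1:**
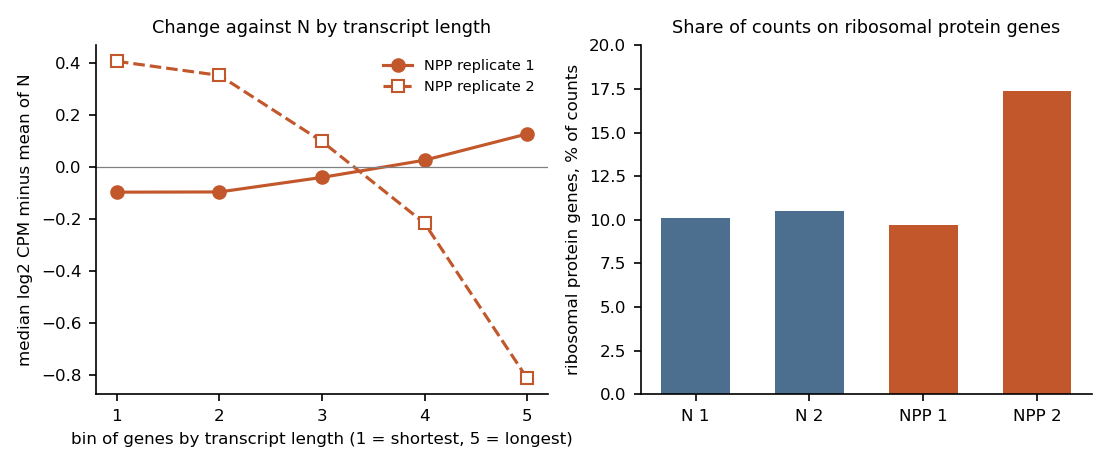
Left, median log2 CPM of each NPP library minus the mean of the N libraries (y axis) in 5 equal bins of genes by transcript length (x axis); right, percent of counts on ribosomal protein genes (y axis) in each of the 4 libraries (x axis). NPP replicate 2 falls from 0.41 to -0.81 with length and has 17.4% of its counts on ribosomal protein genes, against 9.72% to 10.5% in the other 3.

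Marker genes were read as counts scaled to library size by TMM (CPM). The basal keratins KRT5 and KRT14 were abundant, at 1785, 1190, 1589 and 2133 CPM for KRT5 and 752, 458, 640 and 1137 CPM for KRT14 in N1, N2, NPP1 and NPP2. Laminin subunit LAMB3 and integrin ITGB4 were also present in all 4 libraries. Several markers that define epithelium were close to absent, however. CDH1, which encodes E-cadherin, had 2, 5, 4 and 0 counts, EPCAM had 6, 15, 4 and 11 counts, and TP63, the basal transcription factor, had 3, 1, 3 and 0 counts. VIM, which encodes vimentin, stood at 1933 to 7006 CPM and FN1, fibronectin, at 1830 to 4600 CPM. The epithelial label thus rested on keratins and laminins and not on cadherin, EPCAM or TP63. Markers of other cells were mixed. The fibroblast collagen COL3A1, the T cell gene CD3E and the globin HBB had 0 counts in every library, and PTPRC, the pan-leukocyte gene, had 0 to 3 counts. DCN, which encodes the fibroblast proteoglycan decorin, was present in all 4 libraries, at 91.7 and 64.1 CPM in N and 91.2 and 108.02 CPM in NPP, highest in NPP replicate 2, and the collagen COL1A1 and the receptor PDGFRB at 3.62 to 5.72 and 3.28 to 4.52 CPM, with the groups overlapping for DCN and PDGFRB. The summed level of the 11 tested fibroblast and mesenchymal markers was nonetheless higher in NPP, most of it from FN1 and VIM. It was 7336 and 9285 CPM in NPP against 4673 and 4326 in N. The summed luminal level was 403, 382, 405 and 1001 CPM in N1, N2, NPP1 and NPP2, led by KRT18 and KRT8, and the blood and endothelial level was 36.4, 41.8, 37.0 and 76.3 CPM, nearly all from CD68. The part of other cell types in the results was not tested. The HIF1α target CA9 stood at 10.4, 8.64, 7.72 and 12.8 CPM, with the groups overlapping and an adjusted p of 0.943 by edgeR.

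PP242 changed transcripts in both directions. The 4 libraries were fitted with the other 12 of MCF10A in 8 groups, without pairing the replicates. The quasi-likelihood test of edgeR called a gene at an adjusted p under 0.05 over all 13124 protein-coding genes tested. Each gene had a single estimate of spread for all 8 groups, although the SD between replicates was 1.06 in NPP and 0.273 in N. Standard errors and adjusted p values can therefore be too small where the NPP replicates differ. In NPP 45 genes rose and 40 fell, which is 0.648% of the genes tested (0.343% up and 0.305% down). In all 85 both NPP libraries lay on one side of both N libraries; over all tested genes both lay above in 14.9% and below in 17.5%. The median log2 fold change (log2FC, NPP minus N) was 1.90 among the genes that rose and -1.87 among those that fell, against 0.018 over all genes. In a bulk library fewer cells with a transcript and less of it per cell cannot be told apart.

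The calls changed when single libraries were left out, which also left a single library in that group. Without NPP replicate 2, 32 genes passed and 26 of the 85 were among them. Without NPP replicate 1, 398 passed, including 75 of the 85. Without N replicate 1 or N replicate 2 only 4 and 3 passed, all of them from the 85. With the replicate number as a block within each fraction, 223 passed, 114 of them up (0.869% of the genes tested up and 0.831% down), including all 85. The counts with this block are given below for each list in which it added a call. A fit to the 4 libraries alone called 0 genes by edgeR, with 477 at an unadjusted p under 0.05. Every one of the 85 kept its sign in all 14 settings run for single genes. Without NPP replicate 2 the median log2FC of the 45 was 1.79 and that of the 40 was -1.84.

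The 13 genes that rose and were also called without NPP replicate 2 were RGCC, TXNIP, HAS2, CD55, PIM1, HBP1, TFPI, CXCL8, FOXL1, MAFF, GLUL, NEDD4L and KLHL7. The 13 that fell were DLX2, BDKRB1, SAMD11, SMAD6, ID2, DLX1, AEN, ID3, BHLHE40, PMEPA1, GATA2, SMAD7 and MB21D2. The rest of the 85 were called with this library and not without it. A call can be lost there through fewer replicates as well as through a changed value. HES2, PNRC1 and CDC6 lost theirs at log2FC values of 3.40, 1.56 and -1.14, against 3.56, 1.56 and -1.11 with all libraries. For 6 of the 85 the log2FC moved by over 1.5 times as a fold without NPP replicate 2. It became 4.65 for RGCC, 1.95 for HSD17B2, 1.98 for UBALD2, -4.57 for BDKRB1, -3.82 for SAMD11 and -2.87 for ID3.

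**Figure D2:**
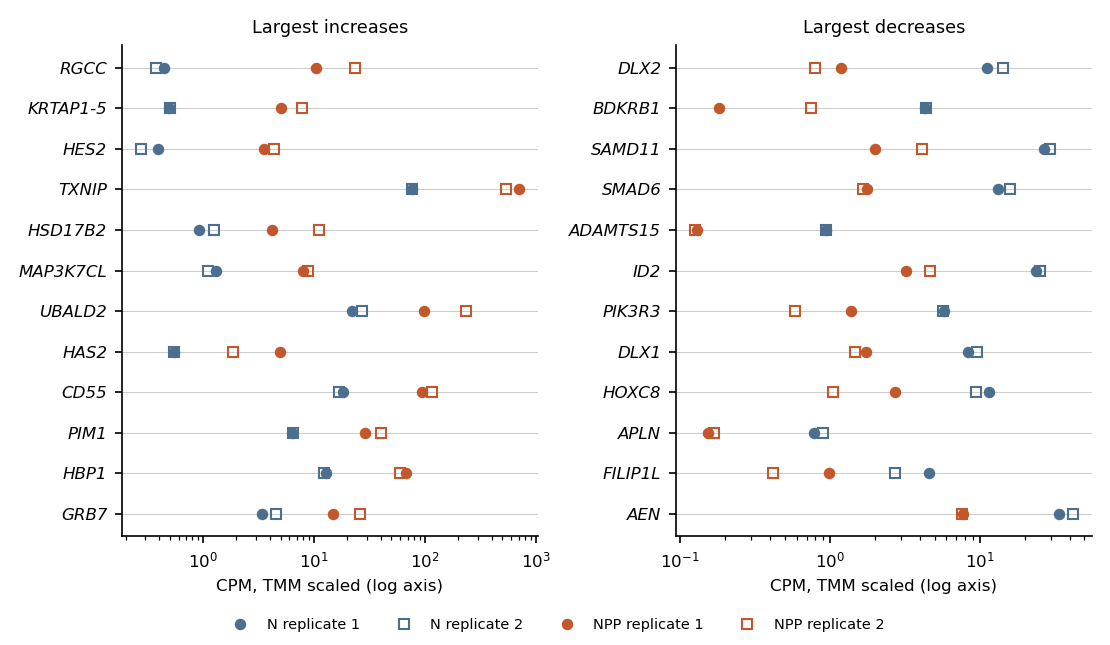
CPM scaled by TMM (x axes, log scale) in each of the 4 libraries for the 12 called genes with the largest increase and the 12 with the largest decrease (y axes); circles are replicate 1, squares replicate 2, blue N and orange NPP, and some symbols overlie. In each of the 24 genes both NPP libraries lie on the same side of both N libraries, and the RGCC values run from 0.379 and 0.444 in N to 10.4 and 23.6 in NPP.

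The largest increase among the called genes was in RGCC, a regulator of cell cycle kinases. It stood at 0.444 and 0.379 CPM in N and at 10.4 and 23.6 CPM in NPP, a log2FC of 5.36 ± 0.63 (standard error; edgeR adjusted p = 0.00503). TXNIP encodes an arrestin that binds thioredoxin and limits glucose uptake. Its CPM was 77.2 and 77.1 in N and 707 and 536 in NPP (log2FC 3.01 ± 0.40, edgeR adjusted p = 0.00689). HBP1, a transcriptional repressor that slows the cell cycle, stood at 12.9 and 12.2 CPM in N and 67.7 and 60.2 CPM in NPP (log2FC 2.35 ± 0.23, edgeR adjusted p = 0.00171). In these genes the N replicates lay close together, and all 3 were also called without NPP replicate 2.

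TXNIP and HBP1 both carry the letters GTAAACA, which FOXO factors can bind, upstream of their annotated start, as does KRTAP1-5. DLX2, the most strongly decreased of the called genes, carries CACGTG, an E-box. These 4 upstream stretches are shown because, among the 24 largest changes, of which 18 had a promoter window, they are the ones in which a searched motif lay before the start. Sequences and starts are those of RefSeq on GRCh38.p14, each written 5′ to 3′ on the strand of its gene with the motif in capitals. TXNIP lies at chr1:145996637-145996763 on the minus strand, HBP1 at chr7:107168770-107168896 on the plus strand, KRTAP1-5 at chr17:41027209-41027321 on the minus strand and DLX2 at chr2:172102901-172103005 on the minus strand. Counted back from the start, the motif begins at base -124 in TXNIP, -173 in HBP1, -53 in KRTAP1-5 and -45 in DLX2.
TXNIP: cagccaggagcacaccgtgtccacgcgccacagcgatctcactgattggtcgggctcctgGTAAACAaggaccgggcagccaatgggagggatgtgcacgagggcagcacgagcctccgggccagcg
HBP1: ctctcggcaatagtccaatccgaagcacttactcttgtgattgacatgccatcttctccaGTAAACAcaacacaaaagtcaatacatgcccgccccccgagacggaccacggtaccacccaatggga
KRTAP1-5: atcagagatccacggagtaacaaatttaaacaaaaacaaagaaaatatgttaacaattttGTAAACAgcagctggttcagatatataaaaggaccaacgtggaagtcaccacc
DLX2: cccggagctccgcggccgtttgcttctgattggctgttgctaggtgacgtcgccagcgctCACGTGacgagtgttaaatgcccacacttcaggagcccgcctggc

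Promoter windows of 250 bases before to 50 after the start were held for 9987 of the 13124 tested genes, 33 of the 45 that rose and 31 of the 40 that fell. Both strands were searched. GTAAACA was found in 3 windows of the genes that rose (9.09%), in 0 of those that fell and in 2.30% of all windows. CACGTG was found in 15.2%, 22.6% and 10.1%. TGACGTCA, the cyclic AMP response element, was found in 9.09%, 3.23% and 3.20%, and TGATGNAA, the amino acid response element, in 3.03%, 0% and 1.68%. A match describes letters in the window and is not evidence that a factor binds there.

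Other large increases fell in genes of varied function. KRTAP1-5, a keratin-associated protein, rose from 0.496 and 0.506 CPM to 5.09 and 7.75 CPM (log2FC 3.67). HES2, a member of the HES family of repressors, rose from 0.392 and 0.274 CPM to 3.51 and 4.35 CPM (log2FC 3.56). HSD17B2, the enzyme that oxidises oestradiol to oestrone, rose from 0.914 and 1.24 CPM to 4.18 and 11.1 CPM (log2FC 2.82). For all 3 genes the values in N were near 1 CPM or under. MAP3K7CL (log2FC 2.79) and UBALD2 (2.75) rose by similar amounts, with UBALD2 at 97.9 CPM in NPP replicate 1 and 236 CPM in replicate 2. HAS2, which makes hyaluronan, rose from 0.548 CPM in both N libraries to 4.96 and 1.84 CPM (log2FC 2.64). Without NPP replicate 2 HAS2 was called, with a log2FC of 3.17, and the other 5 genes were not.

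CD55, which protects cells from complement, rose from 18.2 and 16.9 CPM to 95.1 and 115 CPM (log2FC 2.58, edgeR adjusted p = 0.00503). PIM1, a serine/threonine kinase that shares substrates with AKT, rose from 6.37 and 6.51 CPM to 29.1 and 39.9 CPM (log2FC 2.42, edgeR adjusted p = 0.00689). GRB7, an adaptor of receptor tyrosine kinases, rose from 3.40 and 4.57 CPM to 14.9 and 25.8 CPM (log2FC 2.35). Among these, CD55 and PIM1 were called without NPP replicate 2 and GRB7 was not. The other genes that rose had log2FC values from 1.09 in ARHGAP27 to 2.31 in SDR16C5.

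FOXO targets, a list of 25 genes of which 23 were tested, held 1 called gene, TXNIP, where 0.343% of all tested genes rose. The median log2FC of the tested members was 1.14, and 14 of the 23 had both NPP libraries above both N libraries, where 14.9% of all tested genes did. CCNG2, an unconventional cyclin, stood at 26.4 and 21.6 CPM in N and 137 and 48.6 CPM in NPP (adjusted p = 0.101), and CITED2, a transcriptional co-regulator, at 39.0 and 31.9 against 114 and 130 CPM (adjusted p = 0.108). PDK4, the kinase that switches off pyruvate dehydrogenase, was close to the detection limit, at 0.0522 and 0.0843 against 1.55 and 0.377 CPM. KLF6 and PINK1 had log2FC values of 1.53 and 0.32 and did not pass. SESN1 and BCL2L11 lay lower in both NPP libraries, at log2FC values of -0.84 and -0.64, and did not pass either. The median was 1.16 without NPP replicate 2, and TXNIP and CCNG2 (log2FC 2.52, edgeR adjusted p = 0.0215) were called. With the replicate block 5 of the 23 rose, among them CCNG2 (adjusted p = 0.0147) and CITED2 (adjusted p = 0.0499).

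GLUL, which encodes glutamine synthetase, and PNRC1, a nuclear receptor coactivator, were called and belong to no list; they are named after their values were seen, as are all called genes outside the lists and the 24 largest changes. GLUL stood at 214 and 195 CPM in N and 636 and 516 CPM in NPP (log2FC 1.49). PNRC1 stood at 24.9 and 22.9 against 70.7 and 70.7 CPM (log2FC 1.56), values that did not overlap.

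Genes of the PI3K and mTOR pathway were mostly not called. Of 34 tested members of the list of mTOR complexes and upstream regulators 1 fell, where 0.305% of all tested genes did, and none rose. This was PIK3R3, a regulatory subunit of PI3K, at 5.82 and 5.67 CPM in N and 1.40 and 0.586 CPM in NPP (log2FC -2.50 ± 0.44, edgeR adjusted p = 0.0318; not called without NPP replicate 2), and the list had a median log2FC of -0.13. MTOR, RPTOR and RICTOR had log2FC values of -0.46, -0.48 and 0.92 with groups that overlapped for MTOR and RICTOR. Outside the list, RHEBL1, a relative of the mTORC1 activator RHEB, rose from 2.53 and 1.94 to 7.18 and 14.0 CPM (log2FC 2.24). MIOS, a subunit of the GATOR2 complex that relays amino acid signals to mTORC1, fell from 105.5 and 87.2 to 43.1 and 26.2 CPM (log2FC -1.48). Receptor tyrosine kinases and their IRS adaptors held no called gene among 20 tested (median log2FC 0.19, 0.54 without NPP replicate 2), and 1, GRB10, fell with the replicate block. In that list AXL, EPHA2 and ERBB2 had log2FC values of 0.29, 0.65 and 0.21.

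Lysosomal and TFEB-linked genes also held no called gene, among 40 tested. Their median log2FC was 0.48, and 17 had both NPP libraries above both N libraries, where 14.9% of all tested genes did. CTSB, which encodes the protease cathepsin B, stood at 659 and 774.6 CPM in N and 1461 and 2231 CPM in NPP (log2FC 1.36, adjusted p = 0.0693). GABARAPL1, an autophagosome protein, stood at 6.71 and 6.74 against 19.5 and 18.1 CPM (log2FC 1.48, adjusted p = 0.0618). The values of both genes did not overlap between groups and both missed the threshold, as did SQSTM1 (log2FC 1.13, adjusted p = 0.145). With the replicate block CTSB (adjusted p = 0.0128) and GABARAPL1 (adjusted p = 0.0186) passed. PSAP had a log2FC of 0.35. Without NPP replicate 2 the median of the list was 0.15.

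ID2, ID3, SMAD6, SMAD7 and NOG, of the list of ID proteins and BMP signalling, fell. BMP ligands act through receptor kinases and SMAD proteins, and the ID genes, which block basic helix-loop-helix factors, and the inhibitory SMADs are among their direct targets. These were 5 of 21 tested members, where 0.305% of all tested genes fell, and none rose. The list's median log2FC was -0.96. In 13 both NPP libraries lay below both N libraries, where 17.5% of all tested genes did.

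SMAD6, an inhibitory SMAD, had the smallest adjusted p of the comparison. Its CPM was 13.3 and 15.9 in N and 1.78 and 1.68 in NPP (log2FC -3.07 ± 0.26, edgeR adjusted p = 0.000836). SMAD7, the other inhibitory SMAD, fell from 19.2 and 16.2 to 5.61 and 4.10 CPM (log2FC -1.86, edgeR adjusted p = 0.00875). For both genes the replicates of each group lay within a narrow range and far from the other group.

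ID2 fell from 23.8 and 25.1 to 3.20 and 4.65 CPM (log2FC -2.64 ± 0.36, edgeR adjusted p = 0.00861). ID3 fell from 214 and 280 to 34.0 and 75.7 CPM (log2FC -2.17, edgeR adjusted p = 0.0318). ID1, from the same family, stood at 487 and 518 in N and 58.3 and 173 in NPP, where the spread between the NPP replicates was wide and the gene missed the threshold (log2FC -2.12, adjusted p = 0.0772). NOG, which encodes the secreted BMP antagonist noggin, fell from 7.44 and 7.21 to 1.78 and 2.30 CPM (log2FC -1.85) and was the 1 gene of the 5 not called without NPP replicate 2. Without that library ID1 was called (log2FC -3.11, edgeR adjusted p = 0.0295), so that 5 of the 21 fell there too. SMAD5, a transducer of the signal, had a log2FC of -0.78 with overlapping groups. FST, which encodes the activin antagonist follistatin, lay higher in NPP, at 0.966 and 1.12 against 5.87 and 3.98 CPM, and was not called (adjusted p = 0.107). With the replicate block 7 of the 21 fell and 1 rose, the added ones being ID1 (adjusted p = 0.0170), SMAD9 (0.0239) and, upwards, FST (0.0499). The median of the list was -0.79 without NPP replicate 2 and -1.49 without NPP replicate 1.

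The TGF-β list held 2 genes that fell among 25 tested, where 0.305% of all tested genes did. PMEPA1, a membrane protein that limits SMAD activation, fell from 174 and 200 to 48.6 and 39.4 CPM (log2FC -2.09 ± 0.23, edgeR adjusted p = 0.00296), and SNAI2, a repressor of epithelial genes, from 115 and 143 to 59.0 and 51.7 CPM (log2FC -1.22). SNAI2 was not called without NPP replicate 2. TGFBI stood at 8627 and 6968 CPM in N against 7437 and 9967 in NPP and was not called. CYR61 had a log2FC of 0.32, and the integrin subunit ITGB3 had one of -0.30 with overlapping groups. The list's median was -0.30, and it was 0.15 without NPP replicate 2, so its sign rested on that library.

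Among 22 tested HOX and DLX homeobox genes 4 fell, where 0.305% of all tested genes did, and none rose. Their median log2FC was -0.50 (-0.64 without NPP replicate 2). DLX2, whose promoter stretch is given above, fell most of all called genes, from 11.2 and 14.3 to 1.19 and 0.795 CPM (log2FC -3.67 ± 0.36, edgeR adjusted p = 0.00171). Its neighbour DLX1 fell from 8.33 and 9.67 to 1.76 and 1.46 CPM (log2FC -2.48 ± 0.31, edgeR adjusted p = 0.00588). HOXC8 fell from 11.6 and 9.53 to 2.71 and 1.05 CPM (log2FC -2.47) and HOXC13 from 32.4 and 49.9 to 10.1 and 15.3 CPM (log2FC -1.70). In each of the 4 the groups were apart. DLX1 and DLX2 were called without NPP replicate 2, and HOXC8 and HOXC13 were not. HOXC9 and HOXC6, of the same cluster as HOXC8, had log2FC values of -0.25 and 0.11 with overlapping groups.

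BDKRB1, the inducible bradykinin receptor, fell from 4.33 and 4.38 to 0.181 and 0.754 CPM (log2FC -3.30), and SAMD11 from 27.0 and 29.3 to 1.99 and 4.10 CPM (log2FC -3.22, edgeR adjusted p = 0.00861). AEN, a nuclease induced by p53, fell from 33.8 and 42.0 to 7.70 and 7.58 CPM (log2FC -2.31 ± 0.23, edgeR adjusted p = 0.00172). AEN, DLX2 and SMAD6 were the only genes called in every setting that made any call, and the only ones of the 24 largest changes called without either N library.

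ADAMTS15, an extracellular protease, and APLN, the peptide ligand apelin, were low throughout. ADAMTS15 had 36 and 45 counts in N and 5 and 3 in NPP, and APLN had 30 and 43 against 6 and 4, so their log2FC values of -2.86 and -2.38 rest on few reads. FILIP1L fell from 4.57 and 2.74 to 0.982 and 0.419 CPM (log2FC -2.34). None of these 3 was called without NPP replicate 2. The transcription factor GATA2 (log2FC -1.93) and the insulin-like growth factor binding protein IGFBP3 (-1.87, from 199 and 221 to 65.6 and 49.2 CPM) also fell.

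RRS1, CDC25A and CDC6 fell as well, each the 1 called gene of its list, where 0.305% of all tested genes fell, and none of the 3 was called without NPP replicate 2. RRS1, needed for assembly of the large ribosomal subunit, was the 1 called gene of 51 tested in ribosome biogenesis and RNA polymerase I, falling from 48.5 and 43.0 to 12.7 and 16.8 CPM (log2FC -1.63). Across that list the median log2FC was -0.40 (-0.41 without NPP replicate 2), and 26 of the 51 had both NPP libraries below both N libraries, where 17.5% of all tested genes did. NOP2, an rRNA methyltransferase, stood at 76.9 and 70.0 against 33.1 and 40.1 CPM and missed the threshold (adjusted p = 0.0922), and with the replicate block it passed (adjusted p = 0.0261), as did UTP15, making 3 decreases of 51. NPM1, NCL and NOP56 had log2FC values of 0.48, -0.31 and -0.38, and NPM1 lay above N in both NPP libraries. Outside the list URB2 and LTV1, both with roles in ribosome assembly, fell with log2FC values of -2.19 and -1.30.

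AMD1, which makes the aminopropyl donor for polyamines, fell from 141 and 159 to 55.8 and 32.3 CPM (log2FC -1.77). PPRC1, a coactivator of nuclear genes for mitochondria, MARS2, the mitochondrial methionyl-tRNA synthetase, and COA7, an assembly factor of the respiratory chain, fell with log2FC values of -1.62, -1.83 and -1.33. The 13 mitochondrially encoded genes had a median log2FC of -0.040 and none was called. MT-CO1 stood at 23850 and 21060 CPM in N and 21510 and 22790 in NPP.

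CDC25A, the phosphatase that activates cyclin-dependent kinases, fell from 17.5 and 24.7 to 6.46 and 4.02 CPM (log2FC -2.00) and was the 1 called gene of 21 tested among G1 cyclins and CDK inhibitors (median log2FC -0.31). CCND1, which encodes cyclin D1, stood at 202 and 234 against 89.4 and 43.8 CPM and missed the threshold (adjusted p = 0.122; 0.0259 with the replicate block, under which 3 of the 21 fell), and CKS1B, CDK4 and CDKN1A had log2FC values of 0.60, 0.35 and -0.43. CDC6, which loads the replicative helicase, fell from 83.9 and 91.9 to 40.1 and 41.4 CPM (log2FC -1.11) and was the 1 called gene of 45 in DNA replication. With the replicate block MCM10 was called too. The median of that list was -0.0040 (-0.22 without NPP replicate 2), and PCNA, TYMS and RRM2 had log2FC values of -0.11, 0.21 and -0.19. No gene of mitosis was called among 32 tested (median 0.24), and 1, CDC25C, rose with the replicate block.

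ERK signalling induces its own inhibitors as well as immediate early genes. DUSP5, a phosphatase of nuclear ERK, rose from 16.7 and 17.5 to 51.2 and 69.2 CPM (log2FC 1.81), and SPRY2, an inhibitor of receptor signalling, from 14.5 and 16.7 to 41.2 and 42.2 CPM (log2FC 1.42). These were the 2 called of 40 tested, where 0.343% of all tested genes rose, the median log2FC being 0.57 (0.63 without NPP replicate 2). In 21 of the 40 both NPP libraries lay above both N libraries, where 14.9% of all tested genes did. Neither DUSP5 nor SPRY2 was called without NPP replicate 2. AREG, which encodes the EGF receptor ligand amphiregulin, lay just outside the threshold, at 253 and 186 against 513 and 766 CPM (log2FC 1.54, adjusted p = 0.0503), and with the replicate block it passed (adjusted p = 0.0254). DUSP1 and FOSL1 had log2FC values of 1.06 and -0.098, and JUN lay lower in both NPP libraries without passing (log2FC -1.30, adjusted p = 0.0740; 0.0445 with the replicate block). With that block 5 of the 40 rose and 2 fell.

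CXCL8, which encodes interleukin 8, was the 1 called gene of 20 tested cytokines and NF-κB targets, where 0.343% of all tested genes rose, rising from 6.48 and 4.45 to 24.1 and 16.7 CPM (log2FC 1.90; list median 0.32). NFKBIA, the inhibitor that NF-κB induces, lay lower in both NPP libraries and did not pass (log2FC -1.14, adjusted p = 0.130). PPP1R15A, the phosphatase subunit that reverses eIF2α phosphorylation, was the 1 called of 33 in ATF4 targets and amino acid supply, against the same 0.343%, and was not called without NPP replicate 2. It had 1133 and 1353 counts in N and 3985 and 3173 in NPP (log2FC 2.02), while ATF4, SLC38A2 and SLC7A5 had log2FC values of 0.71, 0.15 and -0.59 and the list a median of 0.053 (-0.075 without NPP replicate 2). With the replicate block CXCL1 rose as a second cytokine and 3 of the 33 ATF4 targets rose.

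NDRG1 rose from 69.7 and 82.0 to 232 and 296 CPM (log2FC 1.80) and was the 1 called of 28 hypoxia targets, where 0.343% of all tested genes rose (not called without NPP replicate 2; VEGFA fell with the replicate block), a list with a median log2FC of -0.21 in which 13 genes lay lower in both NPP libraries, where 17.5% of all tested genes did. BHLHE40, a repressor in the circadian clock that hypoxia also induces, fell from 18.7 and 20.0 to 4.78 and 3.39 CPM (log2FC -2.24, edgeR adjusted p = 0.00652) and was the 1 called of 18 clock genes, where 0.305% of all tested genes fell (median -0.027, 0.10 without NPP replicate 2). In the Notch pathway HES2 was the 1 called of 15, where 0.343% of all tested genes rose (median -0.37, -0.17 without NPP replicate 2), and HEY1 fell with the replicate block. Among the hypoxia targets PLOD2 and ANGPTL4 had log2FC values of -0.57 and -0.93 and did not pass. MYC and its partners held no called gene among 11, and MYC itself stood at 198 and 180 against 374 and 536 CPM (log2FC 1.27, adjusted p = 0.0872; 0.0360 with the replicate block).

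Of the remaining genes that rose, JUP, which encodes plakoglobin, GJB2, the gap junction protein connexin 26, and CD9, a tetraspanin, act at cell contacts and membranes, with log2FC values of 1.69, 1.69 and 1.66. NEDD4L, a ubiquitin ligase (1.56), TFPI, the inhibitor of the tissue factor pathway (1.92), EFNA1, an ephrin ligand (1.90), and MAFF, a small MAF factor (1.73), rose as well. The forkhead genes FOXL1 and FOXC2 rose with log2FC values of 1.86 and 1.36.

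Ribosomal protein mRNAs and other TOP mRNAs, which mTOR controls at translation, were not called in total mRNA. Their medians were 0.73 over 50 large subunit genes, 0.76 over 32 small subunit genes and 0.65 over 26 other TOP mRNAs. The NPP replicates differed here. In NPP replicate 2 the 3 medians against N were 1.26, 1.27 and 1.12, and in NPP replicate 1 they were -0.10, -0.091 and 0.013, close to the fitted medians of -0.10, -0.096 and 0.0094 without NPP replicate 2. RPLP0 shows this in single values, at 2064 and 3168 CPM in N and 1998 and 7638 CPM in NPP, so the N values lie between the NPP values. EEF1A1, the abundant elongation factor, stood at 12720 and 14640 against 14810 and 28940 CPM. In polysomal mRNA the same comparison gave medians of -1.86, -1.82 and -0.96.

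Glycolysis genes had the same dependence on one library, with a median log2FC of 0.44 over 22 genes, no call, and medians of -0.18 and 0.80 in NPP replicates 1 and 2. GAPDH stood at 4810 and 5841 CPM in N and 4421 and 16360 CPM in NPP. Sterol synthesis (27 genes, median log2FC 0.13), replication-dependent histones (34, 0.23), cytosolic tRNA synthetases (20, 0.11), interferon genes (24, 0.29), fatty acid synthesis (16, -0.18) and eIF4F with the 4E-BPs (21, -0.045) held no called gene, and GPAM of fatty acid synthesis fell with the replicate block. Without NPP replicate 2 the medians of sterol synthesis, histones and glycolysis were -0.057, -0.13 and -0.19 and that of eIF4F with the 4E-BPs was 0.043, opposite in sign, and those of interferon genes and tRNA synthetases were 0.0063 and 0.020. The MYC network had a median of 0.066. Basal markers (15 genes, 0.32), luminal markers (7, -0.12), fibroblast and mesenchymal markers (11, -0.095) and blood and endothelial markers (3, 0.54) held no called gene. The last of these medians was -0.093 without NPP replicate 2, and of the basal markers ITGB4 rose with the replicate block (adjusted p = 0.0239).

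**Figure D3:**
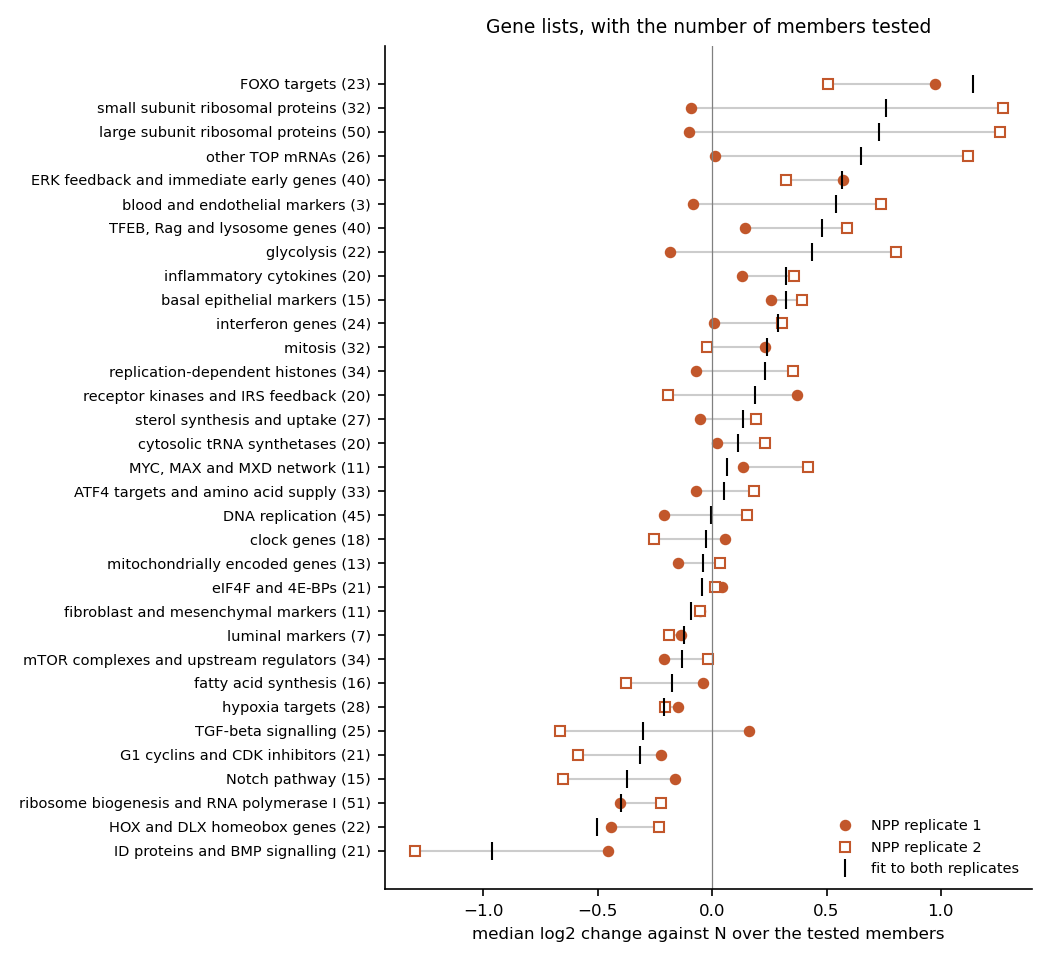
Median log2 change against N over the tested members of each gene list (x axis; lists on the y axis with the number tested), for NPP replicate 1, NPP replicate 2 and the fit to both. ID proteins and BMP signalling (-0.46 and -1.30) and FOXO targets (0.98 and 0.51) keep their sign in both replicates, and ribosomal proteins, other TOP mRNAs and glycolysis lie far right in replicate 2 only.

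The 85 genes were then followed in other libraries, of which the polysomal ones carry the culture numbers of the same 4 samples. In polysomal mRNA of MCF10A all 45 and all 40 had the same sign, with medians of 1.74 and -1.83, and 35 and 26 were called in the same direction, where 0.823% of all genes were called (0.472% up and 0.351% down). The test of the difference between the polysomal and the total effect called 0 of 13124 genes by edgeR (296 at an unadjusted p under 0.05) and 91 by DESeq2. Large and small subunit ribosomal protein genes had medians of -1.86 and -1.82 in polysomal mRNA. In total mRNA they had 0.73 and 0.76, yet none of them was called by edgeR in this test. A count of 0 therefore does not show that the effects were alike. RGCC had a log2FC of 5.55 in polysomes and 5.36 in total mRNA, TXNIP 3.80 and 3.01, SMAD6 -3.13 and -3.07, and DLX2 -3.92 and -3.67.

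In hypoxia, HPP against H in total mRNA, 44 of the 45 and all 40 had the same sign, and 38 and 35 were called in the same direction, where 3.74% of all genes were called (1.33% up and 2.42% down). HPP replicate 2 had 12.5% of its counts on ribosomal protein genes, against 9.09% in HPP replicate 1. Its median transcript length, weighted by counts, was 1275.5 bases against 1389.5, so both shifts ran as in NPP replicate 2. Across genes, the replicate differences of NPP and HPP correlated at 0.871. The part of this shared shift in the agreement was not tested. The test of the difference between the effects in hypoxia and normoxia called 0 genes by edgeR (230 at an unadjusted p under 0.05) and 6 by DESeq2. The 1 gene with the opposite sign was GJB2, at 50.5 and 71.5 CPM in H and 33.7 and 39.5 CPM in HPP, where 4.20 and 3.48 CPM in N became 12.9 and 11.8 CPM in NPP. ID2 stood at 55.3 and 80.5 CPM in H and 3.40 and 4.80 in HPP, so in hypoxia it started higher and reached a like level. BHLHE40 was at 98.3 and 94.5 CPM in H and 68.2 and 51.1 CPM in HPP (log2FC -0.69, not called).

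The same genes were read in total mRNA of MDA-MB-231. Of the 42 genes that rose in MCF10A and were tested there, 39 had the same sign and 6 were called up, with a median log2FC of 0.53, where 0.555% of all genes were called and 0.377% were called up. Of the 35 that fell and were tested, 30 had the same sign and 7 were called down, with a median of -0.61, where 0.178% were called down. PIM1 (log2FC 2.13), HBP1 (1.63), TXNIP (0.99) and PNRC1 (1.75) were called in both lines, as were ID3 (-3.19), RRS1 (-1.33), CDC25A (-1.22) and AEN (-1.38). The 85 were selected in MCF10A, so a smaller median in another line is no test. The test of the difference between the lines, over 14298 genes, called 8 (0.056%), all of them among the 85. They were RGCC, HAS2, ID2, DLX2, SMAD6, NOG, IGFBP3 and MB21D2. DLX2 stood at 0.0934 to 0.228 CPM in the 4 MDA-MB-231 libraries, did not pass the filter of that line's own fit and entered the joint one through MCF10A, so its difference is no result about the lines. For the other 7 the change was larger in MCF10A, with ID2 low in MDA-MB-231 too, at 0.623 to 1.04 CPM. Leaving out single libraries moved this count between 1 and 1388, the highest without NPP replicate 1 of MCF10A, and it was 7 without NPP replicate 2. Cell line, sequencing table and handling cannot be told apart in this comparison.

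**Figure D4:**
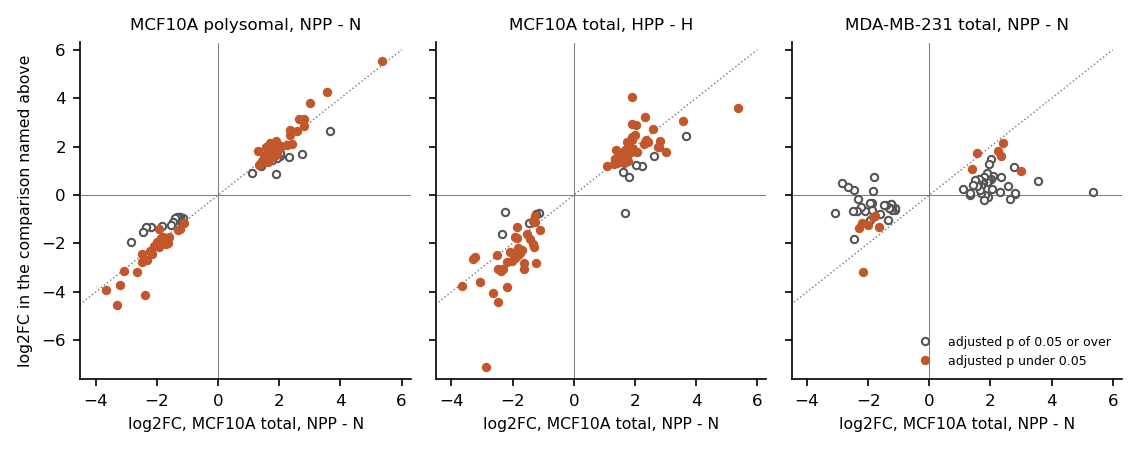
Fitted log2FC of the 85 genes in total mRNA of MCF10A in normoxia (x axes) against their log2FC in 3 other comparisons (y axes), with filled points called there and a dotted line of equal change. All 85 keep their sign in polysomal mRNA and all but GJB2 in hypoxia, while in MDA-MB-231 most lie nearer to 0; the lowest point in hypoxia is ADAMTS15, with 0 CPM in both HPP libraries, so its fitted value is no measure of size.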

How the data were processed

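RNA-Seq of poly(A)-selected mRNA was deposited for 2 biological replicates per group. Per the study's methods, the authors mapped reads with STAR to GRCh38 with GENCODE v24 and estimated counts with RSEM, and the sample labels name GRCh37 instead; no coordinate here comes from the files. The deposited values are RSEM expected counts, held as whole numbers and not normalised by the authors. Because RSEM splits ambiguous reads by estimated abundance, near-identical gene copies are uncertain, and strand was not stated.

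The 16 MCF10A libraries (T and P of N, H, NPP and HPP) were fitted in 8 groups with edgeR 4.0.16 in R 4.3.3 on the 19815 protein-coding genes, of which filterByExpr kept 13124. Libraries were scaled by TMM, and the contrast T NPP minus T N was tested by the quasi-likelihood F test with Benjamini-Hochberg adjustment (threshold 0.05). The fit had 8 residual degrees of freedom and a biological coefficient of variation of 0.325. Each adjusted p printed is that of this test, over all genes, unless its passage names another fit. Those others are the replicate block, a left-out library, the difference between lines and the fit of all gene classes. The difference between lines came from a joint fit of all 32 libraries. DESeq2 1.42.0 was an alternative.

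Transcript lengths were medians per gene in GENCODE v44 and covered 99.6% of the tested genes. By rule, named genes were the 12 largest called changes each way with groups apart and every called member of a list. The 3 members of each list with the highest mean CPM were named too. Other list members, among them CCNG2, CITED2, FST, NOP2, CCND1 and JUN, were named outside this rule with their values known. The genes, the 33 lists (2 listed names were not found in the files) and the tests were chosen with earlier results of these data known, so no list is independent evidence. 0 columns were left without a sample. The labels number the cultures 37 to 40 and 41 to 44, and replicates 1 and 2 follow these runs. Differences between replicates 1 and 2 correlated across genes at 0.406 to 0.871 in all 6 pairs of T groups. The numbers were therefore taken as pairs within T, but only the fits with a replicate block used this pairing. The main fit, with its standard errors and adjusted p values, did not use it. Between P groups these correlations ran from -0.165 to 0.741, and the block within each fraction paired the P libraries as well. The pipeline was tested on simulated data. Some genes that the rules would name are not reported here.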

Additional observations from a re-analysis of the deposited data

Results flagged for a closer look

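The test of the difference in the PP242 effect between the lines called 8 genes. The differences in log2FC (MDA-MB-231 minus MCF10A) were 4.22 for DLX2, 3.06 for ID2, 2.39 for SMAD6, 2.07 for NOG, 1.68 for MB21D2, 1.61 for IGFBP3, -2.76 for HAS2 and -5.16 for RGCC, with adjusted p from edgeR of 0.00105 for RGCC and 0.0309 to 0.0472 for the others. The value for DLX2 is no result about the lines, since DLX2 stood at 0.0934 to 0.228 CPM in all 4 MDA-MB-231 libraries, did not pass the filter of that line's own fit and entered through its level in MCF10A. Levels of several of them also differed between the lines before treatment. With all 32 libraries scaled together, ID2 stood at 27.98 and 29.6 CPM in N of MCF10A and 0.623 and 0.856 CPM in N of MDA-MB-231, and DLX2 at 13.2 and 16.9 against 0.0934 and 0.190 CPM. HAS2 was at 0.644 and 0.648 CPM in MCF10A and 36.7 and 25.3 CPM in MDA-MB-231, and in the latter the NPP values of 30.6 and 25.2 CPM overlapped it. NOG lay between 94.6 and 116 CPM in the 4 libraries of N and NPP of MDA-MB-231. The part of these starting levels in the differences was not tested.

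Non-coding genes, outside the comparison of protein-coding genes, gave 2 called genes among 3585 tested when all gene classes were fitted together. MIR22HG, the host transcript of miR-22, fell from 77.6 and 63.8 to 26.0 and 17.2 CPM (log2FC -1.71, edgeR adjusted p = 0.0492). CH507-42P11.5 was at 0 CPM in both N libraries and at 0.220 and 0.636 CPM in NPP, so no fold change is given.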

How the results depend on the processing

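A log2FC limit of 1 could remove none of the 85 calls, whose smallest absolute log2FC was 1.095, in ARHGAP27. The 85 calls were within 1.5 times under upper-quartile scaling (71), RLE scaling (73), no filter (72) and all gene classes (66). They were 347 with DESeq2, 150 at an adjusted p under 0.10 and 139 with an offset for transcript length (85 up, 54 down, 61.2% up against 52.9%). A fit to the 4 libraries gave 0, and one to the 8 T libraries 0 (477 and 969 at an unadjusted p under 0.05). With a replicate block these became 56 and 43, and the replicate block within each fraction gave 223. Leaving out single libraries gave 3 to 398, where a lone sample was assumed to vary like the other groups. The difference between polysomal and total effects was 0 except with DESeq2 (91), and that between hypoxia and normoxia 0 except with DESeq2 (6). The difference between lines, 8, became 36 with DESeq2, 5 without a filter, 27 with the replicate block and 1 to 1388 without single libraries. The replicate block left both counts of 0 at 0. No called gene named in the text reversed in sign in any setting. Without NPP replicate 2, 21 of the called genes named by rule lost their call and 12 list medians moved by more than the spread between replicates. Without NPP replicate 1, 15 list medians moved in this way, and 4 did so without N replicate 1 and 4 without N replicate 2. The causes were not tested. Depth limits the lowest genes, such as ADAMTS15 with 3 to 45 counts a library.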
